A study of Mus musculus with 12 samples.

Results

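The genes described here are 9 genes of endothelial tip cells and of Notch signaling, *Esm1*, *Apln*, *Aplnr*, *Dll4*, *Jag1*, *Notch1*, *Notch4*, *Hey1* and *Unc5b*. They were chosen by their symbols, with earlier results of these data known. Each symbol matched 1 of the 38924 Ensembl gene identifiers with a read count, and all 9 passed the filter on low counts. The counts came from 12 pancreatic neuroendocrine tumors (PanNETs, insulinomas) of RIP1Tag2 mice on the C57Bl6 background, in which the insulin promoter drives a viral oncogene in beta cells. The vessels of the tumors carry the transgene too, but are not the cells in which that promoter drives it. All mice, controls included, carried that transgene and were treated for 4 days from 15.5 weeks of age. Control mice received saline (tumors 1, 2, 3 and 4), another group received sunitinib, which blocks the receptors of VEGF and PDGF (tumors 5, 6, 8 and 12), and the last group received sunitinib together with rapamycin, which blocks mTOR (R+S, tumors 4, 5, 7 and 10). Tumor numbers name tumors within a group and pair none across groups.

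New vessels grow by sprouting. The endothelial cell at the front of a sprout, the tip cell, responds to VEGF, extends filopodia and displays the ligand Dll4, which activates Notch receptors on the following stalk cells and restrains them from becoming tip cells themselves. Activated Notch is cut, moves to the nucleus and, with RBPJ, switches on repressors of the Hes and Hey families. Tip cells are further known for the secreted proteoglycan Esm1, the peptide apelin (encoded by *Apln*) and the netrin receptor Unc5b.

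The promoters of the members that fell with treatment are shown for the reader who wants to relate expression to sequence. RefSeq (GRCm38.p6) gave a promoter for 7 of the 9 members, and *Aplnr* and *Hey1* had no entry. In the 3 sequences that follow, which cover the 250 bases before the RefSeq start, 5′ to 3′ on the strand of the gene, capitals mark GGAA or its reverse complement TTCC, the core that ETS factors such as the endothelial regulator Erg recognize.
Esm1, chr13:113209409-113209658, plus strand: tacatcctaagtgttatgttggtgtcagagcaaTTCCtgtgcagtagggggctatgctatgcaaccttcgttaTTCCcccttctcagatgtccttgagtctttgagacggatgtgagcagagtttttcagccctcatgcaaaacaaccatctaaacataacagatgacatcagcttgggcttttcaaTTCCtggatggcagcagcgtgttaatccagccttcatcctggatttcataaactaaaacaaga
Notch4, chr17:34564045-34564294, plus strand: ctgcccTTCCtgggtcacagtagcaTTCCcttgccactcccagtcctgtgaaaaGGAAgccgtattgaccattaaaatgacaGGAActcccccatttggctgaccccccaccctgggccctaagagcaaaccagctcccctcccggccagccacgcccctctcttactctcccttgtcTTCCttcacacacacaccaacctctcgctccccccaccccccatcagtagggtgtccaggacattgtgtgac
Dll4, chr2:119325534-119325783, plus strand: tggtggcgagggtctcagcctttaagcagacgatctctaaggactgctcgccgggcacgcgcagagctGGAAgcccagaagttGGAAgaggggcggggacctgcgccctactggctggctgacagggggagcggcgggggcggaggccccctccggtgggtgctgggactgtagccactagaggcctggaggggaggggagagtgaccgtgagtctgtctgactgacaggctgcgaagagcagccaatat
The *Esm1* window held 3 such cores, the *Notch4* window 5 and the *Dll4* window 2. This is a description of letters only, since 93.4% of the 32851 RefSeq promoters of the same length held at least 1. None of the 7 member promoters held GTGGGAA (or TTCCCAC), the core bound by RBPJ, which 5.42% of all promoters held. The core of the hypoxia response element, ACGTG (or CACGT) or GCGTG (or CACGC), was held by 38.6% of all promoters. Its ACGTG form (16.6% of all promoters) was in none of the 7, and its GCGTG form (28.2%) was in 5, those of *Esm1*, *Dll4*, *Notch4*, *Jag1* and *Unc5b*.

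The 12 tumors had 31872342 to 44215054 reads on genes. Levels are given as CPM, read counts scaled to library size after TMM normalization, and fold changes come from the quasi-likelihood F-test of edgeR in 1 fit of the 12 tumors, with Benjamini-Hochberg adjustment of p over all 16645 genes tested. A gene was called at an adjusted p under 0.05. Replicates are tumors, and the labels do not say which mouse each came from: a label prefix was shared by all 4 control tumors, by 3 sunitinib-treated and by 2 R+S-treated tumors, and each prefix belonged to a single group. Its effect cannot be told apart from that of treatment, and p-values measure the spread between these tumors only. Sunitinib-treated tumor 6 stood apart, with 784 CPM of *Ins2* (insulin) against 10612 to 43805 CPM in the other 3 sunitinib-treated tumors. The main results that rest on it are given with and without it.

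The defining markers of endothelial cells were present in every tumor and were lower in both treated groups. *Pecam1*, an adhesion molecule of endothelial junctions, stood at 65.5 to 108 CPM in control, 11.1 to 19.8 CPM in sunitinib-treated and 24.6 to 30.9 CPM in R+S-treated tumors, and *Cdh5*, the endothelial cadherin, at 36.3 to 83.0, 5.04 to 11.1 and 15.01 to 17.3 CPM. Of 20 endothelial markers, 19 were lower with sunitinib (median log2 fold change -2.82) and 18 with R+S (median -1.92) than in control tumors, and 9 were higher in R+S-treated than in sunitinib-treated tumors (median 0.84). Without sunitinib-treated tumor 6 these counts were 20, 18 and 7. Calls between the treated groups, here and for the genes below, depend on the tumors in the fit. Over all genes tested, 0% were called higher there without R+S-treated tumor 4, 5 or 7. With only the 8 tumors compared this share was 0% too, against 2.63% with all tumors. In bulk tumors, fewer endothelial cells and less RNA per endothelial cell cannot be told apart. Acinar markers moved the other way: 19 of 20 were higher in each treated group than in control, with a summed level of 41.5 to 129 CPM in control, 10984 to 39982 CPM in sunitinib-treated and 2787 to 16725 CPM in R+S-treated tumors, and *Ptf1a*, an acinar transcription factor, was at 0 reads in all 4 control tumors. *Cpa1*, an acinar protease, stood at 0.185 to 10.7, 1119 to 4170 and 257 to 1853 CPM in these groups. The part of this difference in the results for the members was not tested beyond a covariate fit given at the end. Of 8 macrophage markers 2 were lower with sunitinib and 1 with R+S than in control, of 7 duct markers 3 were higher with sunitinib and 0 with R+S (3 at an unadjusted p under 0.05, 2 by DESeq2), and of 10 beta-cell markers 0 were called in any comparison (1 higher with R+S against control at an unadjusted p under 0.05, 0 by DESeq2). Without sunitinib-treated tumor 6, 4 macrophage markers were lower and 3 duct markers higher with R+S than in control, and 2 duct markers were higher with sunitinib.

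Against control, 4 of the 9 members were lower and 0 higher with sunitinib (*Esm1*, *Aplnr*, *Notch4* and *Dll4*), where 2.55% of all genes tested were called lower, 1.93% higher and 4.48% at all. With R+S, 3 were lower and 0 higher (*Esm1*, *Aplnr* and *Notch4*), where 2.61% of all genes were called lower, 1.55% higher and 4.16% at all. At an unadjusted p under 0.05, 0 members were higher in either comparison, and DESeq2 also called 0 higher. Between the treated groups 1 member was higher with R+S (*Esm1*) and 0 lower, where 2.63% of all genes were called higher, 4.58% lower and 7.21% at all. There 1 member was lower at an unadjusted p under 0.05, and DESeq2 called 0 lower. Without sunitinib-treated tumor 6, 6 members were lower with sunitinib and 5 with R+S than in control (*Apln* and *Hey1* joined in both), and *Dll4*, in place of *Esm1*, was the 1 member called higher with R+S than with sunitinib. In that fit 3.34%, 5.56% and 4.17% of all genes were called in these directions. The median log2 fold change of the 9 members was -1.77 for sunitinib and -1.5 for R+S against control and 0.24 between the treated groups, against medians of 0.03, 0.01 and -0.02 over all genes tested.

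**Figure D1:**
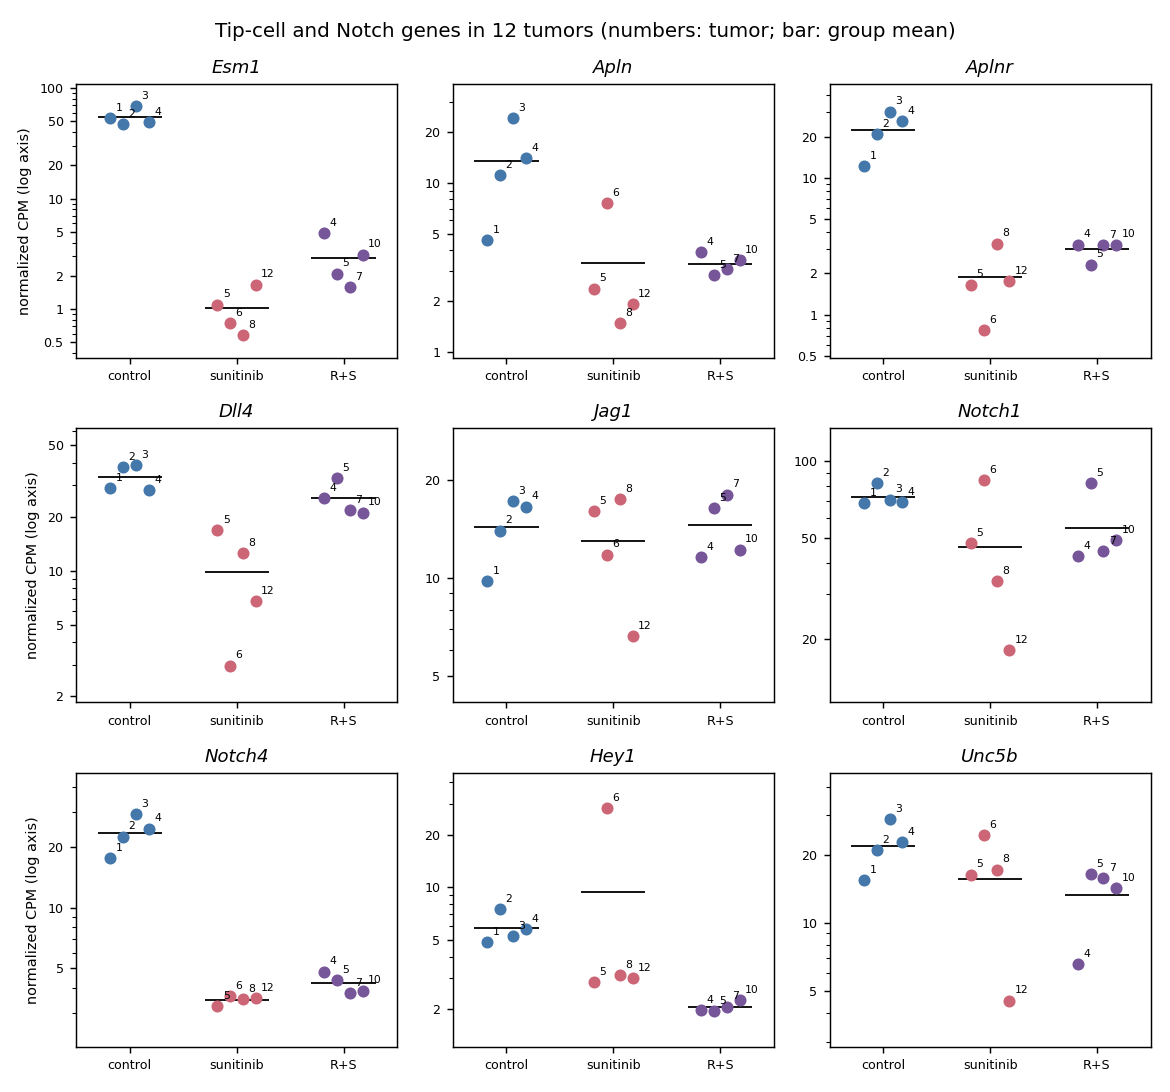
Normalized CPM (log axes) of the 9 genes in the 12 tumors, 1 panel per gene, with each point a tumor labelled by its number and each bar the mean of the 4 tumors of a group. *Esm1* sits at 46.9 to 68.4 CPM in control tumors and at 4.88 CPM or less in all 8 treated tumors, *Notch4* is nearly the same in all 8 treated tumors, and *Hey1* is high in sunitinib-treated tumor 6 alone.

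*Esm1* (ENSMUSG00000042379, 3 exons, GRCm38 chr13:113209659-113218098, plus strand) encodes endocan, a proteoglycan that endothelial cells secrete and that marks tip cells. Its level was 53.1, 46.9, 68.4 and 49.5 CPM in control tumors 1 to 4. It was 1.10, 0.75, 0.58 and 1.67 CPM in sunitinib-treated tumors 5, 6, 8 and 12, or 22 to 52 reads per tumor. It was 4.88, 2.10, 1.58 and 3.12 CPM in R+S-treated tumors 4, 5, 7 and 10. All 8 treated tumors lay below all 4 controls. The mean was 54.5 ± 9.62 CPM in control, 1.02 ± 0.48 CPM with sunitinib and 2.92 ± 1.46 CPM with R+S (SD, n = 4 each). The log2 fold change against control was -5.74 (SE 0.44, edgeR quasi-likelihood adjusted p 1.8e-05) with sunitinib, a 53.4-fold lower level, and -4.22 (SE 0.40, adjusted p 0.0002) with R+S, an 18.7-fold lower level. Each of these calls held in all 12 fits that left out 1 tumor.

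*Esm1* was the member called between the treated groups, at a 2.86-fold higher level with R+S (log2 fold change 1.52, SE 0.38, edgeR quasi-likelihood adjusted p 0.0388). The groups nevertheless overlapped, since R+S-treated tumor 7 (1.58 CPM) lay below sunitinib-treated tumor 12 (1.67 CPM), and the exact permutation p was 0.0571. The call was lost in 10 of the 12 fits that left out 1 tumor, among them those without any 1 control tumor, with log2 fold changes from 1.16 to 1.85 and adjusted p-values up to 0.0996. It was 1.40 (adjusted p 0.0528) without sunitinib-treated tumor 6.

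*Apln* (ENSMUSG00000037010, 3 exons, chrX:48025146-48034853, minus strand) encodes apelin, the peptide ligand that tip cells release. Its level was 4.58, 11.2, 24.2 and 14.0 CPM in control tumors 1 to 4, with the widest spread relative to its mean of any member in this group. It was 2.37, 7.63, 1.48 and 1.93 CPM in the sunitinib-treated tumors and 3.88, 2.85, 3.10 and 3.52 CPM in the R+S-treated tumors. The sunitinib-treated tumors overlapped the controls through tumor 6, while all R+S-treated tumors lay below the lowest control. The log2 fold changes against control, -2.01 with sunitinib (SE 0.57, edgeR quasi-likelihood adjusted p 0.0754) and -2.01 with R+S (SE 0.57, adjusted p 0.0688), did not pass the test. Both did without sunitinib-treated tumor 6, at -2.81 (adjusted p 0.00464) and -2.01 (adjusted p 0.0123), and so did both in the fit without control tumor 1 and by DESeq2.

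*Aplnr* (ENSMUSG00000044338, 1 exon, chr2:85136225-85139923, plus strand) encodes the apelin receptor, a G-protein-coupled receptor of venous and sprouting endothelium. Its level was 12.2, 21.0, 30.4 and 25.9 CPM in control, 1.66, 0.77, 3.30 and 1.76 CPM in sunitinib-treated and 3.25, 2.32, 3.21 and 3.24 CPM in R+S-treated tumors, in the order of tumors given above. The receptor was lower in every treated tumor than in every control. Its log2 fold change was -3.57 with sunitinib (SE 0.42, edgeR quasi-likelihood adjusted p 0.00042), an 11.9-fold lower level, and -2.90 with R+S (SE 0.41, adjusted p 0.00235), a 7.44-fold lower level. Each call held in all 12 fits that left out 1 tumor. R+S-treated against sunitinib-treated tumors, the log2 fold change was 0.68 (95% interval -0.17 to 1.53, adjusted p 0.256).

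*Dll4* (ENSMUSG00000027314, 11 exons, chr2:119325784-119335962, plus strand) encodes the Notch ligand that VEGF induces in tip cells and arteries. Its level was 29.0, 37.7, 38.9 and 28.1 CPM in control tumors. It was 16.8, 2.96, 12.6 and 6.80 CPM in sunitinib-treated tumors 5, 6, 8 and 12, all below the controls. It was 25.4, 32.8, 21.8 and 21.0 CPM in R+S-treated tumors 4, 5, 7 and 10, all above the sunitinib-treated tumors and 1 of them within the range of the controls. With sunitinib the mean of 33.4 ± 5.67 CPM fell to 9.78 ± 6.12 CPM (SD, n = 4 each), a 3.41-fold lower level (log2 fold change -1.77, SE 0.41, edgeR quasi-likelihood adjusted p 0.0315). This call was lost in 6 of the 12 fits that left out 1 tumor, among them those without any 1 control tumor, with log2 fold changes from -2.15 to -1.47 and adjusted p-values up to 0.0908. It held without sunitinib-treated tumor 6 (-1.47, adjusted p 0.0104).

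With R+S, *Dll4* stood at 25.3 ± 5.39 CPM (SD, n = 4), a log2 fold change from control of -0.40 (95% interval -1.28 to 0.47, edgeR quasi-likelihood adjusted p 0.607). It was 2.58-fold higher with R+S than with sunitinib, a log2 fold change of 1.37 (SE 0.41) whose adjusted p of 0.0608 missed the threshold. The ranges of these groups did not overlap, and the exact permutation p was 0.0286, the smallest that 4 tumors against 4 can give. Groups did not overlap, in the higher direction, for 8.9% of all genes tested. Without sunitinib-treated tumor 6 the difference was 1.07 (adjusted p 0.0401), and by DESeq2 it was 1.36 (adjusted p 0.0129). With treated tumors of 1 label prefix summed, and the control tumors, which share a prefix, kept apart, it was 1.47 (adjusted p 0.0278). *Dll4* was not called between the treated groups in 10 of the 12 fits that left out 1 tumor. The log2 fold changes in these 12 fits were 1.07 to 1.75, with adjusted p-values up to 0.155. It was not called either with only the tumors of the treated groups, or without a filter on low counts. This member thus lay on either side of the threshold depending on the fit.

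*Jag1* (ENSMUSG00000027276, 25 exons, chr2:137081456-137116644, minus strand) encodes a Notch ligand that opposes Dll4 in sprouting vessels and is also made by epithelial cells. Its level was 9.77 to 17.2 CPM in control, 6.64 to 17.5 CPM in sunitinib-treated and 11.6 to 18.1 CPM in R+S-treated tumors. The 3 ranges overlapped. The log2 fold change was -0.14 with sunitinib (95% interval -0.79 to 0.50, edgeR quasi-likelihood adjusted p 0.814) and 0.02 with R+S (95% interval -0.63 to 0.66, adjusted p 0.982) against control. These intervals exclude changes of the size seen for *Esm1*, *Aplnr* and *Notch4*.

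*Notch1* (ENSMUSG00000026923, 40 merged exons, chr2:26457903-26516663, minus strand) encodes a receptor of many cell types, endothelial cells among them. Its level was 68.5, 81.8, 70.7 and 69.1 CPM in control, 47.6, 84.4, 33.9 and 18.1 CPM in sunitinib-treated and 42.4, 82.3, 44.2 and 49.1 CPM in R+S-treated tumors. The control tumors lay close together, whereas the treated tumors spread widely and 1 tumor of each treated group lay above all controls. The log2 fold change was -0.66 with sunitinib (95% interval -1.48 to 0.16, edgeR quasi-likelihood adjusted p 0.362) and -0.41 with R+S (95% interval -1.23 to 0.41, adjusted p 0.572), neither past the test. The models of *Notch1* and *Dll4* share 1482 and 214 exonic bases with genes on the opposite strand. The libraries keep strand, but the sources used here do not state whether the counting used it.

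*Notch4* (ENSMUSG00000015468, 31 merged exons, chr17:34564268-34588503, plus strand) encodes the receptor whose expression is largely confined to endothelium. Its level was 17.6, 22.5, 29.3 and 24.7 CPM in control tumors, 3.27, 3.65, 3.51 and 3.56 CPM in sunitinib-treated and 4.83, 4.37, 3.78 and 3.89 CPM in R+S-treated tumors. The 8 treated tumors lay within a narrow band far below the controls, and the R+S-treated tumors lay just above the sunitinib-treated ones. Its log2 fold change was -2.75 with sunitinib (SE 0.19, edgeR quasi-likelihood adjusted p 1.1e-05), a 6.73-fold lower level, and -2.48 with R+S (SE 0.19, adjusted p 6.2e-05), a 5.58-fold lower level. Both calls held in all 12 fits that left out 1 tumor. R+S-treated against sunitinib-treated tumors, the log2 fold change was 0.27 (95% interval -0.12 to 0.66, adjusted p 0.324), although the ranges did not overlap.

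*Hey1* (ENSMUSG00000040289, 3 exons, chr3:8663359-8667256, minus strand) encodes a transcriptional repressor that Notch activates. Its level was 4.83, 7.51, 5.25 and 5.78 CPM in control tumors. It was 2.86, 28.4, 3.14 and 3.02 CPM in sunitinib-treated tumors 5, 6, 8 and 12, and 1.97, 1.94, 2.07 and 2.25 CPM in the R+S-treated tumors. All R+S-treated tumors lay below all others, and 3 sunitinib-treated tumors lay between them and the controls, while tumor 6 was the highest of all 12. With all tumors the log2 fold changes were 0.68 with sunitinib (SE 0.67, edgeR quasi-likelihood adjusted p 0.606) and -1.5 with R+S (SE 0.68, adjusted p 0.245) against control and -2.18 between the treated groups (SE 0.70, adjusted p 0.0711), and none passed the test. After leaving out sunitinib-treated tumor 6 they were -0.96 (adjusted p 0.0184), -1.5 (adjusted p 0.000839) and -0.54 (adjusted p 0.0945), so that *Hey1* was called lower in both treated groups, with the opposite sign for sunitinib.

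*Unc5b* (ENSMUSG00000020099, 18 merged exons, chr10:60762593-60831581, minus strand) encodes a netrin receptor of tip cells and arteries. Its level was 15.4, 20.9, 28.8 and 22.8 CPM in control, 16.4, 24.4, 17.2 and 4.56 CPM in sunitinib-treated and 6.60, 16.4, 15.8 and 14.2 CPM in R+S-treated tumors. The groups overlapped, and 1 tumor of each treated group lay well below the rest. The log2 fold change was -0.49 with sunitinib (95% interval -1.43 to 0.45, edgeR quasi-likelihood adjusted p 0.557) and -0.73 with R+S (95% interval -1.67 to 0.21, adjusted p 0.366) against control.

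**Figure D2:**
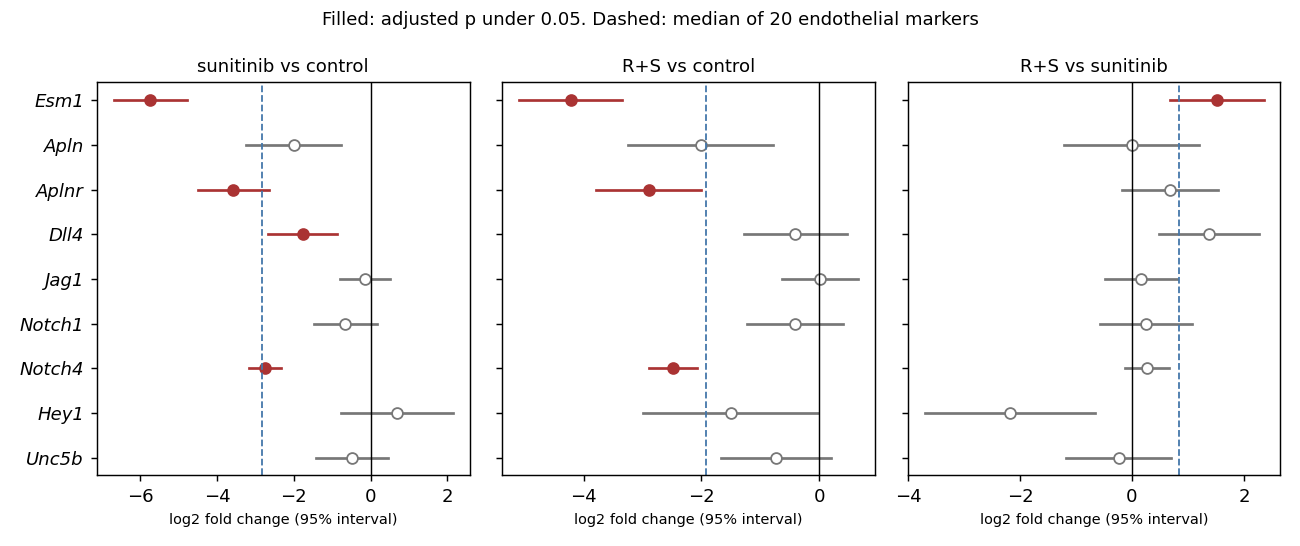
Log2 fold changes of the 9 genes with 95% intervals in the 3 comparisons, with filled points for an adjusted p under 0.05 and a dashed line at the median of the 20 endothelial markers (-2.82, -1.92 and 0.84). Against control, *Esm1* lies far to the left of the dashed line in both treated groups, *Notch4* lies near it, and *Jag1*, *Notch1* and *Unc5b* lie to its right with intervals that include 0.

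Exact permutation tests, 27 in all, compared the mean log2 CPM of 2 groups, and the ranges of the groups were read beside them. Groups did not overlap, in the lower direction, for 4 members with sunitinib against control (*Esm1*, *Aplnr*, *Dll4* and *Notch4*), where 5.76% of all genes tested were lower and 5.17% higher without overlap. They did not overlap for 5 members with R+S against control (*Esm1*, *Apln*, *Aplnr*, *Notch4* and *Hey1*), where 11.9% of all genes were lower and 11.6% higher without overlap. Of the treated groups, R+S was higher without overlap for *Dll4* and *Notch4* and lower for *Hey1*, where 8.9% of all genes were higher and 9.73% lower without overlap. Each of these gave the smallest two-sided exact p, 0.0286.

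Another scale asked whether a member changed more or less than the endothelial markers as a whole. The geometric mean of the 20 markers was 18.6 ± 2.65 CPM in control, 2.96 ± 0.68 CPM in sunitinib-treated and 4.98 ± 0.69 CPM in R+S-treated tumors (SD, n = 4 each), and each member was divided by it. On this scale nearly every gene rises with treatment: 97% of all genes tested were called higher with sunitinib and 90.5% with R+S, and 0.264% and 0.306% were called lower. A call in the higher direction therefore says only that a gene did not fall with the markers.

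*Esm1* fell more than the endothelial markers. Its ratio to their geometric mean was 2.64 to 3.35 in control, 0.153 to 0.758 in sunitinib-treated and 0.351 to 0.820 in R+S-treated tumors. In the fit scaled to the markers its log2 fold change was -2.93 with sunitinib (SE 0.46, edgeR quasi-likelihood adjusted p 1.7e-05) and -2.36 with R+S (SE 0.45, adjusted p 0.000148), and it was called in all 15 alternatives of each. Between the treated groups the difference on this scale was 0.58 (95% interval -0.36 to 1.51, adjusted p 0.269).

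*Aplnr* was the other member called lower on this scale, by 0.89 with sunitinib (SE 0.39, edgeR quasi-likelihood adjusted p 0.0364) and 0.94 with R+S (SE 0.39, adjusted p 0.0302) on the log2 scale. The ranges of its ratio overlapped between sunitinib-treated and control tumors, 9 and 10 of 15 alternatives were called, and without sunitinib-treated tumor 6 the value for sunitinib was -0.63 (adjusted p 0.0841). The ratio of *Notch4* was 1.11 to 1.32 in control, 0.922 to 1.62 in sunitinib-treated and 0.810 to 0.882 in R+S-treated tumors. Its log2 fold change on this scale was -0.03 with sunitinib (95% interval -0.62 to 0.56, edgeR quasi-likelihood adjusted p 0.914) and -0.56 with R+S (95% interval -1.16 to 0.03, adjusted p 0.0666), and 0 and 4 of 15 alternatives called it lower, among the latter the scale of 5 core markers (-0.77, adjusted p 0.0302). The R+S-treated tumors lay below the controls without overlap in this ratio. *Apln* did not differ beyond its error in either comparison, with a log2 fold change of 0.74 with sunitinib (95% interval -0.32 to 1.79) and -0.03 with R+S (95% interval -1.08 to 1.02).

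On this scale *Dll4* was called higher in both treated groups, as were 97% of all genes with sunitinib and 90.5% with R+S. Its ratio was 1.5 to 2.12 in control tumors, 0.949 to 6.20 in sunitinib-treated and 4.27 to 6.63 in R+S-treated tumors. The R+S-treated tumors lay above all controls in this ratio, whereas sunitinib-treated tumor 6 lay below them and the other 3 above. The log2 fold change on this scale was 1.5 with R+S (SE 0.40, edgeR quasi-likelihood adjusted p 0.00245) and 0.91 with sunitinib (SE 0.40, adjusted p 0.0377), the latter called in 8 of 15 alternatives. Without sunitinib-treated tumor 6 the value for sunitinib was 1.22 (adjusted p 0.000405), where 96.2% of all genes were called higher. R+S against sunitinib, with all tumors, the log2 fold change was 0.59 (95% interval -0.25 to 1.43, adjusted p 0.212).

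*Jag1*, *Notch1* and *Unc5b*, whose CPM did not differ from control beyond its error, were higher relative to the markers in both treated groups, by 1.25 to 2.5 on the log2 scale. *Hey1* was higher relative to the markers with sunitinib (3.28, SE 0.69, edgeR quasi-likelihood adjusted p 0.000384, and 1.76 without tumor 6) and lower in R+S-treated than in sunitinib-treated tumors (-2.88, SE 0.68, adjusted p 0.0054, and -1.36 without tumor 6). In that last comparison 52.3% of all genes were called lower on this scale and 0.222% higher.

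**Figure D3:**
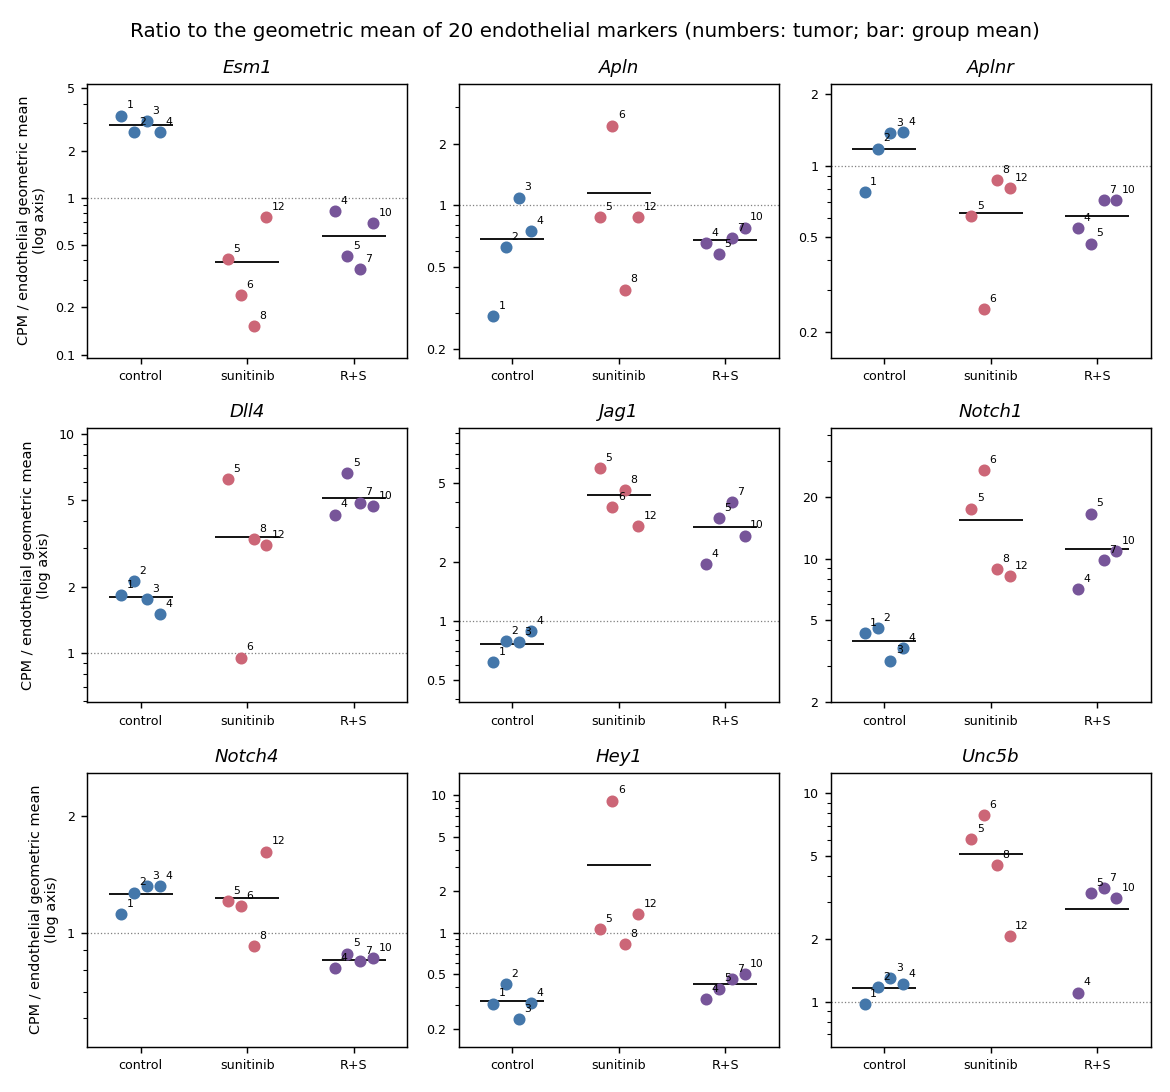
Ratio of each gene's CPM to the geometric mean CPM of 20 endothelial markers (log axes) in the 12 tumors, with points labelled by tumor number, bars at group means and a dotted line at a ratio of 1. *Esm1* drops from 2.64 to 3.35 in control tumors to below 1 in all treated tumors, *Notch4* remains between 0.810 and 1.62, and *Dll4* is above all controls in the 4 R+S-treated tumors.

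Per length the order of the members changed with treatment. In CPM per kilobase of exon, *Esm1* led the control tumors at 26.0 ± 4.59, apart from *Dll4* at 8.68 ± 1.47, and below it *Aplnr* (6.05), *Notch1* (5.10), *Apln* (4.29), *Unc5b* (3.51), *Notch4* (2.92), *Jag1* (2.47) and *Hey1* (1.79) followed, each overlapping its neighbor. In sunitinib-treated tumors *Notch1* (3.23), *Hey1* (2.86), *Dll4* (2.54), *Unc5b* (2.5) and *Jag1* (2.23) had the highest mean levels per kilobase, and *Apln* (1.06), *Aplnr* (0.507), *Esm1* (0.488) and *Notch4* (0.434) the lowest, again with every neighbor overlapping. The place of *Hey1* rests on tumor 6: without it *Dll4* (3.13) led *Notch1* (2.33), *Jag1* (2.30), *Unc5b* (2.03) and *Hey1* (0.920), and *Esm1* kept rank 8. In R+S-treated tumors *Dll4* led at 6.56 ± 1.40 CPM per kilobase, overlapping *Notch1* (3.83). *Jag1* (2.5), *Unc5b* (2.12), *Esm1* (1.39) and *Apln* (1.06) followed there, and after a gap came *Aplnr* (0.812), *Hey1* (0.630) and *Notch4* (0.523). *Esm1* thus had rank 1 of 9 in control, 8 with sunitinib and 5 with R+S.

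Other genes of tip cells were read from a list of 18, none of them members. With sunitinib 10 were lower and 0 higher (median log2 fold change -1.67), where 2.55% of all genes were called lower. With R+S 10 were lower and 0 higher (median -2.04), where 2.61% of all genes were called lower. The medians of the 20 endothelial markers in these comparisons were -2.82 and -1.92. In the higher direction 1 gene with sunitinib and 0 with R+S reached an unadjusted p under 0.05, and DESeq2 called 0. The largest falls among the named genes were of *Kdr*, the main VEGF receptor of endothelium, from 96.8 ± 14.9 CPM in control to 3.39 ± 1.46 CPM with sunitinib and 7.70 ± 1.23 CPM with R+S (log2 fold changes -4.83 and -3.65, edgeR quasi-likelihood adjusted p 1.1e-05 and 0.000126). *Plvap*, the diaphragm protein of fenestrated vessels, changed by -3.53 and -2.64, *Igfbp3*, a binding protein of insulin-like growth factors, by -3.58 and -3.22, *Nrp1*, the VEGF co-receptor, by -2.22 and -2.04, and *Rgcc* by -2.30 and -2.55 on the log2 scale. *Pdgfb*, the ligand by which sprouts recruit pericytes, changed by -1.56 and -1.08, and *Nid2*, a basement membrane protein, by -2.94 and -3.35. Between the treated groups *Kdr* (1.18, adjusted p 0.0358) and *Plvap* (0.89, adjusted p 0.0277) were higher with R+S, and *Plaur*, the urokinase receptor, was lower (-0.89, adjusted p 0.0431). None of these calls held without R+S-treated tumor 5, where 0% of all genes were called in this comparison. Without sunitinib-treated tumor 6, 12 of the 18 were lower in each treated group than in control and 4 were higher and 1 lower between them. In that fit 3.34% of all genes were called lower with sunitinib and 5.56% with R+S than in control. Between the treated groups 4.17% were called higher and 5.89% lower.

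Of the 5 remaining Notch ligands and receptors, 2 were lower with sunitinib (median log2 fold change of the 5 genes 0.06), 0 were called with R+S against control (median -0.24, 1 lower at an unadjusted p under 0.05, 0 by DESeq2) and 1 was higher with R+S than with sunitinib (median -0.08). Without sunitinib-treated tumor 6 the medians were -0.52, -0.24 and 0.33, so that both comparisons with the sunitinib group turned in sign. With all tumors, 2.55% of all genes were called lower with sunitinib and 2.61% with R+S than in control. Between the treated groups 2.63% were called higher with R+S. *Notch3*, the receptor of pericytes and smooth muscle, was at 19.1 to 34.7 CPM in control, 6.08 to 14.6 CPM in sunitinib-treated and 20.1 to 25.4 CPM in R+S-treated tumors. It was lower with sunitinib (log2 fold change -1.35, SE 0.29, edgeR quasi-likelihood adjusted p 0.0228), higher in R+S-treated than in sunitinib-treated tumors (1.11, SE 0.29, adjusted p 0.0448, not called without sunitinib-treated tumor 6) and at -0.24 (adjusted p 0.686) with R+S against control. *Pdgfrb*, a defining gene of the mural cells that carry *Notch3*, moved beside it, at -1.19 (adjusted p 0.018) with sunitinib and -0.63 (adjusted p 0.181) with R+S. *Notch3* itself is 1 of 10 mural markers, of which 4 were lower with sunitinib and 2 with R+S against control and 2 were higher with R+S than with sunitinib (5, 3 and 0 without sunitinib-treated tumor 6). The contractile genes of that list did not pass the test and were above 0, *Acta2* at 0.42 and 1.38, *Myh11* at 0.37 and 1.53 and *Tagln* at 0.08 and 0.58 with sunitinib and R+S against control. The part of mural cells in the change of *Notch3* was not tested. *Dll1*, a ligand of many tissues, was lower with sunitinib (-0.79, SE 0.18, adjusted p 0.0311) and at -0.41 with R+S (adjusted p 0.237). *Jag2* (0.06 and -0.03) and *Notch2* (0.28 and 0.20), a ligand and a receptor, did not pass the test. *Cd68*, a macrophage gene, was at 0.31 and 0.09 against control, neither past the test, while *Mrc1* of the same list was lower in both treated groups (-1.91 and -2.33, adjusted p 0.00502 and 0.00241) and *Adgre1* with sunitinib (-1.14, adjusted p 0.00509).

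Of 7 further Notch target genes, 0 were called in any of the 3 comparisons by edgeR (medians 0.38, -0.64 and -0.04, and -0.64, -0.64 and 0.39 without sunitinib-treated tumor 6, which turned the first and the last in sign). At an unadjusted p under 0.05, 1 was higher and 2 lower with sunitinib, 1 was lower with R+S and 3 were lower in R+S-treated than in sunitinib-treated tumors, and DESeq2 called 2, 0 and 1 lower in these comparisons. *Hes1*, the repressor that Notch induces in most tissues, was at 6.31 to 7.19 CPM in control tumors, at 4.25 to 4.65 CPM in 3 sunitinib-treated tumors and 21.7 CPM in tumor 6, and at 6.36 to 14.5 CPM with R+S. *Nrarp*, a feedback inhibitor of Notch in stalk cells, was at 8.79 to 19.02, 4.30 to 10.9 and 5.27 to 10.7 CPM (log2 fold changes -1.05 with sunitinib, adjusted p 0.113, and -0.84 with R+S, adjusted p 0.182). Without sunitinib-treated tumor 6, *Nrarp* was lower (-1.30, adjusted p 0.0453) and *Hes7* higher (1.46, adjusted p 0.0368) with sunitinib than in control, and *Hes1* was higher (1.00, adjusted p 0.0424) and *Hes7* lower (-1.58, adjusted p 0.0293) in R+S-treated than in sunitinib-treated tumors. Tumor 6 was thus high in *Hey1*, *Hes1* and *Dtx1* (113 CPM against 4.67 to 5.70 CPM in the other sunitinib-treated tumors), while control tumor 1 was high in *Dtx1* alone among the controls (26.3 CPM against 1.40 to 2.45 CPM).

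Of 22 genes that process Notch or form its nuclear complex, 0 were called with sunitinib against control (1 higher and 2 lower at an unadjusted p under 0.05, 0 by DESeq2), 1 was higher with R+S than in control and 2 were higher with R+S than with sunitinib, with median log2 fold changes of -0.07, 0.07 and 0.14. Of all genes, 1.55% were called higher with R+S than in control and 2.63% with R+S than with sunitinib. The last comparison, without sunitinib-treated tumor 6, held 4 higher and 1 lower, where 4.17% of all genes were called higher and 5.89% lower. In that fit 2 were higher with R+S than in control, where 4.11% of all genes were called higher. *Furin*, the protease that matures Notch receptors, was higher with R+S than in control (0.56, SE 0.14, edgeR quasi-likelihood adjusted p 0.0426) and than with sunitinib (0.63, SE 0.14, adjusted p 0.0294). *Numb*, an adaptor that inhibits Notch, was higher with R+S than with sunitinib (0.59, SE 0.13, adjusted p 0.0313). The other guidance genes of vessels, near *Unc5b* in function, numbered 14, of which 13 passed the filter (medians 0.21, -0.03 and 0.11, and -0.18, -0.03 and -0.0021 without sunitinib-treated tumor 6). *Plxnd1*, the endothelial semaphorin receptor, was lower in both treated groups (-1.99 and -1.89, adjusted p 0.00163 and 0.00378), and *Ntn4*, a netrin of basement membranes, was higher with R+S than in control (1.47, adjusted p 0.0151) and than with sunitinib (1.08, adjusted p 0.0428), at 3.70 to 6.54 CPM in control, 5.20 to 8.36 CPM with sunitinib and 9.43 to 21.6 CPM with R+S.

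**Figure D4:**
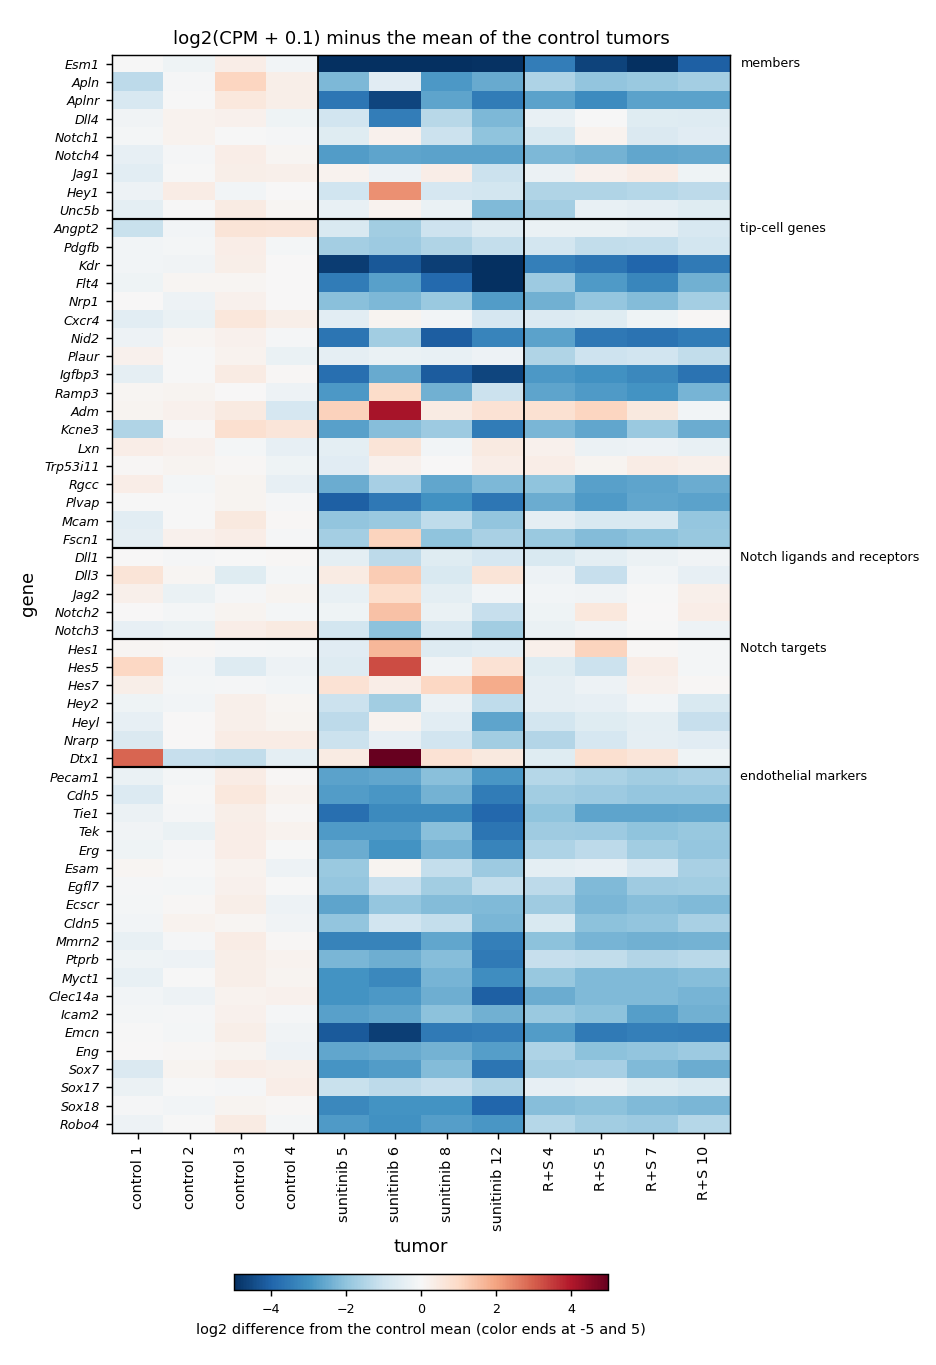
Log2(CPM + 0.1) of each gene minus its mean over the 4 control tumors, for the 9 members, 18 further tip-cell genes, 5 Notch ligands and receptors, 7 Notch targets and 20 endothelial markers (rows) in 12 tumors (columns), with color from blue (lower) to red (higher) that ends at -5 and 5. The endothelial markers, except *Esam* in sunitinib-treated tumor 6, and many tip-cell genes are blue in all 8 treated tumors. The Notch targets are pale in most tumors, and sunitinib-treated tumor 6 is red for *Hey1*, *Hes1*, *Hes5*, *Dtx1* and *Adm*.

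Among genes that are not members, those whose log2 CPM over the 12 tumors, centred on its mean, lay nearest to that of a called member were found by the root mean square difference. *Esm1* was nearest to *Cd300lg* (0.516), *Btnl9* (0.559) and *Kdr* (0.783), against a root mean square of 2.49 for *Esm1* around its own mean. *Aplnr* was nearest to *Mmrn2* (0.425), *Emcn* (0.444) and *Myct1* (0.445), all 3 in the endothelial list. *Notch4* was nearest to *Icam2* (0.238), *Cd34* (0.256) and *Lama4* (0.256). *Dll4* was nearest to *Daam2* (0.396), *Ahr* (0.424) and *Cx3cr1* (0.425), none of them in the endothelial list, and *Daam2* shared its pattern of 3.24 CPM in control, 0.764 CPM with sunitinib and 1.89 CPM with R+S. The 12 tumors share their libraries and depth between genes, so these are descriptions.

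The acinar score, the mean log2 CPM of the acinar markers centred over the tumors, was -7.36 to -3.63 in control, 2.77 to 4.45 in sunitinib-treated and 0.98 to 3.34 in R+S-treated tumors, so that it separated treated from control tumors without overlap. With this score as a covariate, 0 of the 9 members were called by edgeR in any comparison, with 2 in each at an unadjusted p under 0.05, and 0 of the 16645 genes were called against control. The log2 fold changes of *Esm1* were then -5.19 with sunitinib (adjusted p 0.527) and -3.73 with R+S (adjusted p 0.8), those of *Notch4* -1.76 (adjusted p 0.921) and -1.63 (adjusted p 0.949), those of *Aplnr* -1.33 and -0.97, and that of *Dll4* with sunitinib -1.35. Treatment and acinar content cannot be told apart between treated and control tumors. The scores of the treated groups overlapped, and between these groups 1.48% of all genes were called with this covariate (0.577% higher and 0.901% lower with R+S). The part of acinar content in the differences between them was not tested further.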

How the data were processed

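Poly(A) RNA of 12 tumors was sequenced as strand-specific libraries. Per the submitters' processing notes, cutadapt 1.2.1, TopHat2 2.0.9, HTSeq 0.5.4p3 and GRCm38 were used, and the annotation release is not given in the sources used here. The authors deposited raw counts of reads per gene, 1 table per tumor, without normalization. Groups and tumor numbers came from the labels. Lines that name no gene were left out (reads on no gene were 11.2% to 18.9% of those on genes or on none). Names and coordinates came from GENCODE M21 (GRCm38), with 37607 of 38924 identifiers paired with a symbol.

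Counts were filtered by filterByExpr (minimum count 10, minimum total 15) and tested by edgeR 4.0.16 (quasi-likelihood F-test, robust, TMM, R 4.3.3) in 1 fit of 3 groups. The text of the study read here names no test for RNA-seq, and its supplemental procedures were not used here. The standard error is the absolute log2 fold change divided by the square root of F. For the scale of the endothelial markers, normalization factors made their mean log2 CPM (prior count 2) equal in all tumors. Exact permutation tests were two-sided over 70 arrangements of 4 tumors against 4. The fits were tested on simulated data. Reads carry no molecular identifiers. DESeq2 1.42.0 was an alternative.

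The members and lists were chosen with earlier results of these data known, so that their counts beside the shares over all genes are descriptions. Named genes were the 9 members, up to 6 called genes per list and comparison by adjusted p (most endothelial markers are given as counts instead), the 3 nearest genes of each called member, 6 Notch genes (*Dll1*, *Jag2*, *Notch2*, *Notch3*, *Hes1*, *Nrarp*) and 6 defining markers of cell types. *Ptf1a*, *Hes5*, *Hes7*, *Dtx1*, *Adm*, *Esam*, *Acta2*, *Myh11*, *Tagln*, *Mrc1* and *Adgre1* were named after their values were seen.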

Additional observations from a re-analysis of the deposited data

Results flagged for a closer look

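In groups of 4 tumors, the gap of the lowest or highest tumor to its neighbor on the log2 CPM scale was compared with the range of the group by Dixon's criterion at the 95% level for the 27 groups of the 9 members, and 3 exceeded it. Chance gives about 1 in 20. *Hey1* was at 28.4 CPM in sunitinib-treated tumor 6 (gap over range 0.959), against 2.86 to 3.14 CPM in the other 3 tumors of that group. *Aplnr* was at 2.32 CPM in R+S-treated tumor 5 (0.966), against 3.21 to 3.25 CPM in the others. *Unc5b* was at 6.6 CPM in R+S-treated tumor 4 (0.843), against 14.2 to 16.4 CPM in the others.
The ratios in parentheses are on the log2 scale. On the CPM scale, added after seeing the data, 5 of the 27 groups exceeded the criterion: *Hey1* (0.989) and *Aplnr* (0.96) as before, *Apln* in sunitinib-treated tumor 6 (0.854), *Notch1* in control tumor 2 (0.834) and *Notch1* in R+S-treated tumor 5 (0.832). *Unc5b* did not exceed it on that scale (0.778).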

How the results depend on the processing

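*Esm1*, *Aplnr* and *Notch4* were called lower in both treated groups under every alternative except the acinar covariate. That covariate left 0 members in each comparison. With R+S against control 5 members were called when the fit held just the 8 tumors of the comparison (*Apln* and *Hey1* added), where 9.11% of all genes were called lower. Between the treated groups 0 were called without a filter on low counts (3 at an unadjusted p under 0.05, 1.91% of all genes called) and 0 with only those 8 tumors (3 unadjusted, 0.0186% of all genes called), and 2 by DESeq2 (*Dll4* added, 17.3% of all genes called). On the scale of the endothelial markers, 2 were called between the treated groups with 5 core markers (*Unc5b* added), where 61.2% of all genes were called lower. Leaving out 1 tumor gave 3 to 6 members with sunitinib and 3 to 5 with R+S against control (6 and 5 without sunitinib-treated tumor 6), 0 to 3 between the treated groups (3 without sunitinib-treated tumor 5, where *Dll4* and *Hey1* joined *Esm1*, and 0 without any 1 of the control or R+S-treated tumors or sunitinib-treated tumor 8), and on the endothelial scale 5 to 7, 5 to 7 and 1 to 3. With 1 tumor left out, 2.61% to 5.34% of all genes were called with sunitinib and 1.73% to 9.67% with R+S against control. Calls over all genes between the treated groups moved too, from 7.21% to 16.9% without sunitinib-treated tumor 5, to between 2.42% and 5.21% without 1 control tumor and to between 0% and 1.86% without 1 R+S-treated tumor. On the endothelial scale with 1 tumor left out, 96.1% to 97%, 87.4% to 92.9% and 33.6% to 60.8% of all genes were called in the 3 comparisons.

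Signs turned only for members that were not called in that comparison in the fit of all tumors. *Hey1* with sunitinib was called after its sign turned, without sunitinib-treated tumor 6 (-0.96, edgeR quasi-likelihood adjusted p 0.0184). *Apln* was at 0.48 with sunitinib and 0.088 with R+S under the acinar covariate, and between the treated groups at 0.022 without a filter, 0.27 with prefixes summed and 0.0027 by DESeq2 (-0.25 to 0.79 with 1 tumor left out). *Jag1* was at 0.98 with sunitinib and -0.022 between the treated groups under the acinar covariate, and with R+S at -0.0016 with upper-quartile factors, -0.011 by library size and -0.074 with prefixes summed. With 1 tumor left out it was at -0.32 to 0.071, -0.13 to 0.12 and -0.052 to 0.34 in the 3 comparisons. *Hey1* with sunitinib was at -0.83 under the acinar covariate and -0.96 to 0.97 with 1 tumor left out. *Unc5b* between the treated groups was at 0.053 with prefixes summed and -0.54 to 0.060 with 1 tumor left out, and *Notch1* at -0.022 to 0.71. Prefixes were summed in the treated groups only, and control tumors were kept apart. The causes of the turned signs were not tested. No paired analysis was possible because any 2 groups share fewer than 2 tumor numbers. Counts of list genes without tumor 6 and the endothelial scale without *Esam* were chosen after seeing the data, as was the order of levels without tumor 6. A prior count of 0.5 moved no count of exact tests. Low levels in treated tumors, down to 22 reads of *Esm1*, limit precision there.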
